A study of Glycine max with 4 samples.

Results

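The transcriptome of the vegetative bud was set against that of the shoot tip in the soybean line Clark five-foliate, a leaf mutant of the cultivar Clark. The comparison joined 1 library of each tissue on the identifier of the gene model. It covers the 39042 genes, of 69145 in all, that reached 1 RPKM in either of the 2 five-foliate libraries. RPKM is a read number scaled by the length of the model and by the size of the library. At the filter, the nearest gene inside had 1.00 RPKM in its higher library and the nearest outside 0.999 RPKM. Where a gene had several models, the one with the highest mean over the 4 libraries of the series stood for it. The other line, Clark standard, is labelled wild type and also has 1 bud library and 1 shoot tip library, which are used here in that choice of model and beside the five-foliate values. All plants were 4 weeks old and grew in a greenhouse under optimal conditions. The protocol speaks of material from several plants, but each tissue of each line is represented by a single library. No test of the tissue difference within the five-foliate line was therefore possible, and every difference below is a difference between libraries. The shoot tip values of both lines were deposited together, apart from the bud values of both lines. A difference between these sets cannot be told apart from one between the tissues, in either line.

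The shoot tip of a plant holds the apical meristem, a small dome of dividing cells that forms the stem, with the youngest leaf primordia on its flanks. A vegetative bud is a compressed shoot with a meristem of its own and folded young leaves, which will form leaves and stem rather than flowers. Soybean leaves are compound and normally trifoliate, and the number of leaflets is set while the leaf is still a primordium. In tissues taken whole, fewer cells of a type and less RNA per cell cannot be told apart. The files give identifiers without gene names, and 0 of the identifiers matched the 59048 genes of the reference table. Genes are therefore described by chromosome, level and position in gene order, with no more than 2 identifiers in each direction, and the tissues could not be checked against marker genes.

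The 2 tissues had similar levels for most genes. The median RPKM of the 39042 genes was 5.08 in the five-foliate bud and 4.86 in the five-foliate shoot tip. With 1 RPKM added to both values, which draws low genes together, 63.1% of the genes differed less than 1.5-fold. Across genes, which share their libraries and are not independent replicates, levels on the log2(RPKM + 1) scale had a Pearson r of 0.840 and a Spearman rho of 0.818. Of the genes, 33207 reached 1 RPKM in both tissues, 4069 in the bud alone and 1766 in the shoot tip alone. The five-foliate bud library had 103618555 alignments and the five-foliate shoot tip library 139769051, as recovered from the RPKM, against 97532923 for the standard bud and 152791817 for the standard shoot tip. In a model of 1 kb, 3 reads are worth 0.0290 RPKM in that bud library and 0.0215 RPKM in that shoot tip library.

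At least 2-fold higher in the bud were 3909 genes, 10% of those compared, and at least 2-fold lower were 3094 genes, 7.92%. Ratios are log2((bud RPKM + 1)/(shoot tip RPKM + 1)), so a gene near or under 1 RPKM needs a larger difference to reach 2-fold. The median ratio was 0.07 on the log2 scale, with quartiles of -0.33 and 0.49. With ratios centred on that median, 3433 genes (8.79%) were higher in the bud and 3479 (8.91%) lower. Centring moves all ratios alike, so the genes added to one side and lost from the other were those next to the threshold. Exact 95% binomial intervals of the fold, which cover counting error only, lay clear of 1 for all 3908 higher genes with recovered reads and for all 3094 lower genes. The median read number in the lower library was 221 for the higher genes and 546.5 for the lower ones. Since the genes were chosen by a 2-fold ratio of the same values, this outcome was nearly fixed by the choice and adds no support to it.

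**Figure D1:**
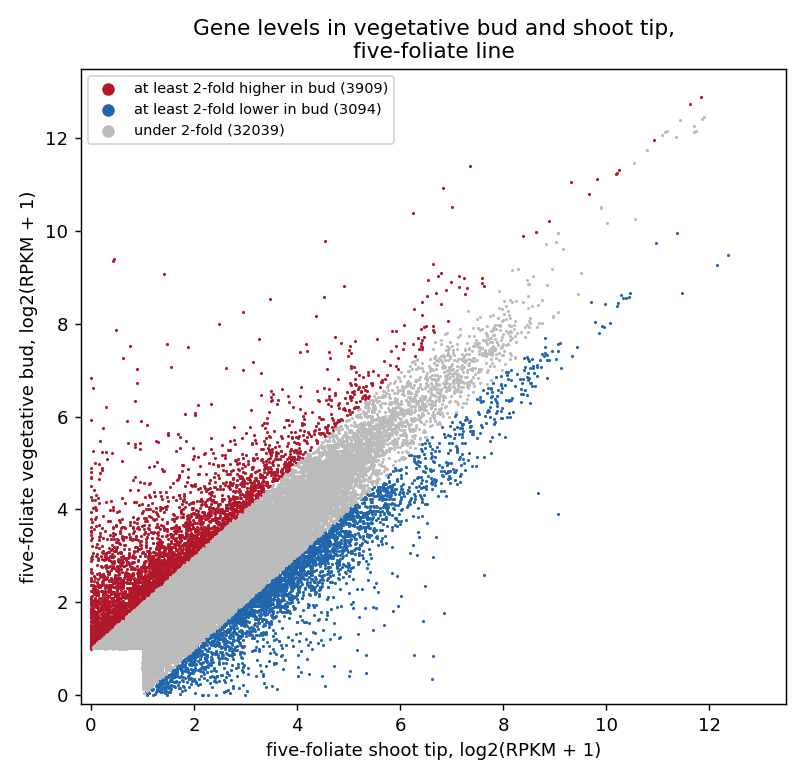
Level of each of the 39042 genes in the five-foliate vegetative bud (vertical axis) and shoot tip (horizontal axis), both as log2(RPKM + 1), with 1 point per gene. The 3909 genes at least 2-fold higher in the bud lie above the grey band and the 3094 lower ones below it, and the empty corner at the lower left is the filter of 1 RPKM.

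Large differences were more often towards the bud. At 4-fold or more, 721 genes were higher and 420 lower in the bud. At 8-fold the counts were 178 higher and 66 lower, at 16-fold 69 higher and 21 lower, and at 32-fold 25 higher and 6 lower. With centred ratios the excess towards the bud was also present, with 654 higher and 491 lower at 4-fold and 23 higher and 6 lower at 32-fold.

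The gene with the highest ratio among those at 5 RPKM or more in one tissue was Glyma10g04930 on chromosome 10. It had 675.9 RPKM in five-foliate buds and 0.373 RPKM in five-foliate shoot tips, from 20170 and 15 reads. In the standard line it had 636.8 RPKM in the bud and 0.136 RPKM in the shoot tip. The bud level was thus high and the shoot tip level near the floor in both lines. Without the pseudocount, the five-foliate bud was 1814-fold above the five-foliate shoot tip (95% exact binomial interval 1099 to 3241).

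Its neighbour Glyma10g04940, with no listed gene between them, had 653.7 RPKM in five-foliate buds and 0.353 RPKM in five-foliate shoot tips. In the standard line it had 612.1 RPKM in the bud and 0.129 RPKM in the shoot tip. The pattern over the 4 libraries was that of Glyma10g04930, and the five-foliate bud was 1852-fold higher (interval 1122.5 to 3309). The neighbours had the same read numbers in the shoot tips, 15 each in the five-foliate and 6 each in the standard library. In the five-foliate bud their reads differed by a factor of 1.02. How the authors treated reads with several matches is not given in the sources used here, so whether the 2 genes counted the same reads was not tested.

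Towards the shoot tip, Glyma14g06980 on chromosome 14 had the lowest ratio. It had 0.263 RPKM in five-foliate buds and 97.9 RPKM in five-foliate shoot tips, from 30 and 15060 reads. The standard line had 0.540 RPKM in the bud and 148 RPKM in the shoot tip. Both shoot tips were far above both buds, and the five-foliate shoot tip stood 372-fold above its bud (interval 261 to 552). With all models of this gene summed, its log2 ratio was -6.93 in place of -6.29.

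Glyma14g04530, also on chromosome 14, had 0.795 RPKM in five-foliate buds and 98.2 RPKM in five-foliate shoot tips. In the standard line it had 1.02 RPKM in the bud and 36.7 RPKM in the shoot tip. The direction was the same in both lines, with a shoot tip excess of 124-fold in the five-foliate line (interval 106 to 144) and 35.9-fold in the standard line (interval 31.3 to 41.4).

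The 15 genes with the highest ratio had between 52.6 and 675.9 RPKM in the five-foliate bud, and at most 2.68 RPKM in five-foliate shoot tips. They lay on 8 chromosomes, with 4 of them on chromosome 13. One of these 4 had 113.1 RPKM in the five-foliate bud, from 10539 reads, but the shoot tip of that line gave 0 reads, for which the exact 95% lower limit makes the bud at least 3853-fold higher. Of all genes compared, 74.98% were higher in the standard bud than in the standard shoot tip as deposited, and 20.7% at least 2-fold. All 15 were also higher in the standard bud than in the standard shoot tip, 14 of them by 2-fold and 12 by 8-fold or more. The exception under 2-fold, on chromosome 3, had 72.5 RPKM in five-foliate buds and 0.231 RPKM in five-foliate shoot tips, but 59.5 RPKM in standard buds and 31.7 RPKM in standard shoot tips. For 11 of the 15 the ratios of the lines were within 2-fold of each other.

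The 15 genes with the lowest ratio had between 0.140 and 19.4 RPKM in the five-foliate bud and between 22.2 and 532.9 RPKM in five-foliate shoot tips. They lay on 11 chromosomes. The standard bud was likewise lower than the standard shoot tip by 2-fold or more for all 15, and by 8-fold or more for 13. By comparison, 24.99% of all genes compared were lower in the standard bud as deposited, and 8.14% at least 2-fold. The ratios of the lines were within 2-fold of each other for 7 of the 15. A gene on chromosome 17 was the most abundant of them in the five-foliate shoot tip, with 14.0 RPKM in five-foliate buds and 532.9 RPKM in five-foliate shoot tips, against 20.7 RPKM in standard buds and 464.7 RPKM in standard shoot tips.

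**Figure D2:**
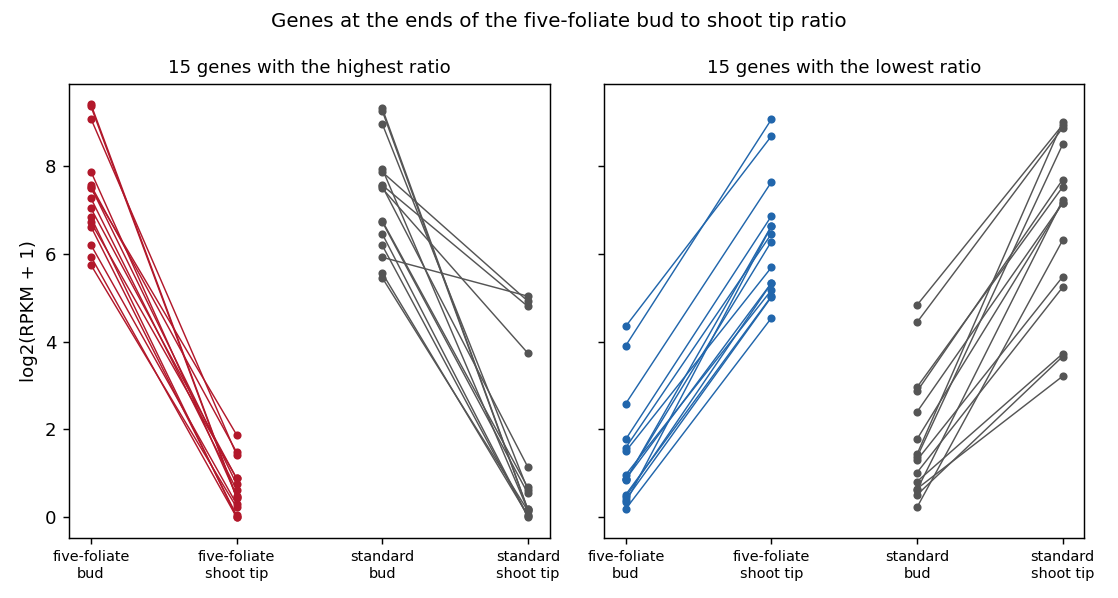
Levels, as log2(RPKM + 1), of the 15 genes with the highest (left) and the 15 with the lowest (right) five-foliate ratio of bud to shoot tip, in each of the 4 libraries, with a line joining the 2 tissues of a line. All 30 genes slope the same way in the standard line, where 74.98% of all genes were higher and 24.99% lower in the bud. In the left panel 3 stay above 20 RPKM in the standard shoot tip. The 30 genes were chosen by the coloured five-foliate values.

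Genes present in one tissue and nearly absent from the other were also more often bud genes. At 5 RPKM or more in the five-foliate bud and 0.1 RPKM or less in the five-foliate shoot tip were 51 genes, 0.131% of those compared. The reverse was found for 7 genes, 0.0179%. The 51 bud genes had a median of 11.5 RPKM in the five-foliate bud and a highest value of 113.1 RPKM. For 18 of them the five-foliate shoot tip gave no read. The same rule held in the standard line for 31 of the 51, and 47 were at least 2-fold higher in the standard bud as deposited. Of all genes compared, 20.7% were at least 2-fold higher and 8.14% at least 2-fold lower in the standard bud. How many of all genes met the rule in the standard line is not given here. In 3 of the 51 the standard line was at least 2-fold the other way. One of these 3, on chromosome 1, had 11.5 RPKM in five-foliate buds and 0.0716 RPKM in five-foliate shoot tips, against 0.718 RPKM in standard buds and 37.3 RPKM in standard shoot tips.

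The 7 shoot tip genes lay on 7 chromosomes and had a median of 5.47 RPKM in five-foliate shoot tips and a highest value of 11.3 RPKM. As deposited, 8.14% of all genes compared were at least 2-fold lower in the standard bud than in the standard shoot tip. All 7 were at least 2-fold lower there, and 3 met the same rule in the standard line. Their median in the standard shoot tip was 14.4 RPKM. In the standard shoot tip 4 of them were higher than in the five-foliate shoot tip and 3 were lower.

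The genes on each side of the comparison differed in abundance. Those higher in the bud had a median of 6.79 RPKM in five-foliate buds and 1.44 RPKM in five-foliate shoot tips, and 41.2% of them were under 1 RPKM in the shoot tip. Those lower in the bud had a median of 4.37 RPKM in five-foliate buds and 14.3 RPKM in five-foliate shoot tips, and 15.3% of them were under 1 RPKM in the bud. Of all genes compared, 14.9% were under 1 RPKM in their lower five-foliate tissue, so the lower genes were near that share. The 3094 lower genes held 7.26% of the RPKM sum of the five-foliate bud and 24.7% of that of the five-foliate shoot tip. The 3909 higher genes held 19.97% in the bud and 6.15% in the shoot tip.

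The share of genes lower in the bud grew with the level of expression. It was 3.06% of the 2090 genes with a mean under 1 RPKM over the 2 five-foliate libraries, 8.35% between 5 and 10 RPKM, 15.02% between 20 and 50 RPKM and 24.1% between 100 and 1000 RPKM. The share higher in the bud was 14.3%, 8.56%, 8.72% and 10.3% in the same classes. The pseudocount of 1 makes 2-fold harder to reach in the low classes, in both directions. Shares by class at another pseudocount are not given here. Among the 32 genes at 1000 RPKM or more, 11 were higher and 5 lower in the bud, and with centred ratios 6 were higher and 5 lower. The median ratio was 0.46 on the log2 scale in the lowest class and -0.25 between 100 and 1000 RPKM. Each gene of the lowest class had 1 RPKM or more in 1 library and under 1 RPKM in the other. It thus passed the filter only through the tissue where it was higher, so the shares and median of this class depend on the filter. With centred ratios 66 genes were higher and 170 lower between 100 and 1000 RPKM. Between 5 and 10 RPKM centring turned the order, with 784 higher and 765 lower as deposited against 708 higher and 856 lower centred.

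**Figure D3:**
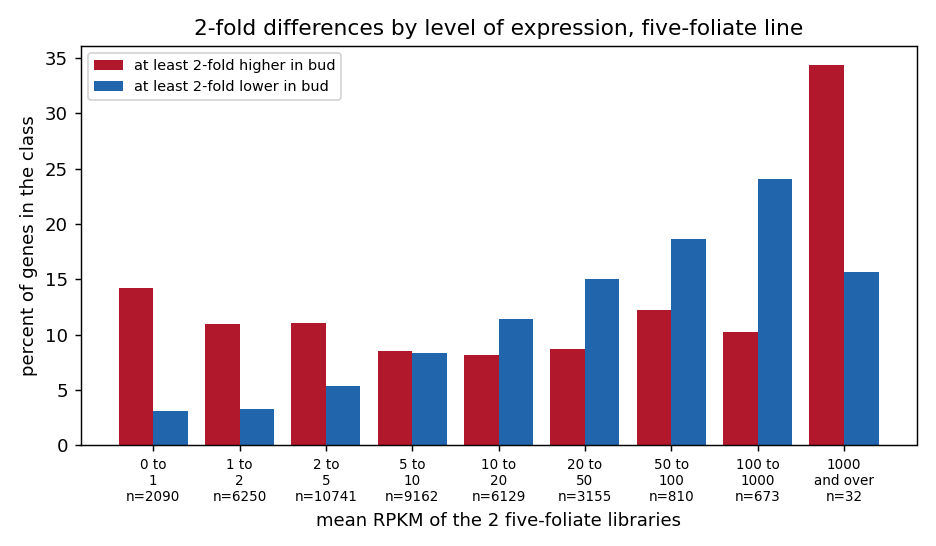
Percent of genes at least 2-fold higher (red) and lower (blue) in the five-foliate bud than in the five-foliate shoot tip, in classes of the mean RPKM of the 2 libraries, with the number of genes under each class. The blue bars grow from 3.06% to 24.1% up to 1000 RPKM, and the last class holds 32 genes.

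Model length, recovered with the reads, was a smaller divide. In the quartile of genes with the longest models (1884 to 16411 bases) 6.79% were higher and 5.20% lower in the bud, against 12.0% and 9.60% in the quartile from 775 to 1287 bases. The median ratio stayed between 0.05 and 0.09 in all 4 quartiles.

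The most abundant transcripts of the bud came from a single stretch of chromosome 13. Of the 20 most abundant genes of the five-foliate bud, 19 lay in a stretch of 39 listed genes there, and 14 of the 20 most abundant genes of the five-foliate shoot tip lay in it too. The stretch held 16.5% of the RPKM sum of the five-foliate bud and 9.30% of that of the five-foliate shoot tip, against 10.3% in the standard bud and 2.45% in the standard shoot tip. The stretch runs from the first to the last of those 19 genes, so it was chosen by their level in the five-foliate bud. Of its 37 genes at 1 RPKM, 35 had a ratio above 0 and 13 were at least 2-fold higher in the bud, as deposited. Among all genes 54.7% were above 0 and 10% higher. The 37 had a median of 2223 RPKM in five-foliate buds and 1033 RPKM in five-foliate shoot tips. Their median log2 ratio was 0.94, close to the 2-fold threshold, and they were not counted with centred ratios. Centring moved the most abundant bud gene from 1.03 to 0.96 and the next from 1.11 to 1.04. In the standard line 36 of the 37 were at least 2-fold higher in the bud as deposited, against 20.7% of all genes compared. Among the 20 most abundant bud genes, 6 had read numbers within 1% of another's in all 4 libraries, and how far reads counted for several genes add to these shares was not tested. With the stretch left out of the RPKM sums and the counts, 4599 genes were higher and 2685 lower in the bud. The median log2 ratio was then 0.17.

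The remaining gene among the 20, on chromosome 10, had 2685 RPKM in five-foliate buds and 161.9 RPKM in five-foliate shoot tips, against 2255 RPKM in standard buds and 40.6 RPKM in standard shoot tips. It was the only one of the 20 with a bud excess beyond 3-fold.

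Of the 20 most abundant genes of the five-foliate shoot tip, 6 lay outside the stretch, and 5 of these had a bud level at least 2-fold lower. They were chosen by their shoot tip level, which favours genes lower in the bud. Among the 100 most abundant genes of that shoot tip, 52 were lower and 11 higher in the bud, and of all genes compared 7.92% were lower. The 6 held 0.840% of the RPKM sum in the five-foliate bud and 3.31% in the five-foliate shoot tip, against 0.853% in the standard bud and 11.3% in the standard shoot tip. The most abundant, on chromosome 19, had 714.8 RPKM in five-foliate buds and 5297 RPKM in five-foliate shoot tips. In the standard line it had 847.5 RPKM in the bud and 19969 RPKM in the shoot tip. The buds were close to each other and the shoot tips were not. A second gene of chromosome 19 had 615.6 RPKM in five-foliate buds and 4572 RPKM in five-foliate shoot tips, and its reads were within 1% of those of the first in all 4 libraries.

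The standard line, which shares no library with the five-foliate comparison, had its own bud and shoot tip values for the same 39042 genes. There 8064 genes (20.7%) were at least 2-fold higher and 3178 (8.14%) at least 2-fold lower in the bud. With centred ratios the standard counts were 3606 higher (9.24%) and 5135 lower (13.2%). The median log2 ratio of these genes was 0.07 in the five-foliate line and 0.46 in the standard line.

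Of the 3909 genes higher in the five-foliate bud, 3036 were at least 2-fold higher in the standard bud too, which is 77.7% of the five-foliate list and 37.6% of the standard list. Of the 3094 genes lower in the five-foliate bud, 1859 were also lower in the standard bud, 60.1% of the five-foliate list and 58.5% of the standard list. With centred ratios 2113 genes were higher in both lines and 2494 lower in both. Their share of the five-foliate lists was then 61.5% for the higher and 71.7% for the lower genes. The higher genes were thus the more shared ones as deposited and the lower genes with both lines centred. Across the 39042 genes the ratios of the lines had a Pearson r of 0.761 and a Spearman rho of 0.718.

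For 33822 genes, 86.6%, the ratios of the lines as deposited were within 2-fold of each other. The median of the five-foliate minus the standard log2 ratio was -0.37, and counts of this difference were not made with centred ratios. As deposited, the five-foliate ratio was at least 2-fold above the standard one for 1521 genes and at least 2-fold below it for 3699. In 94.4% of these genes the shoot tip libraries of the lines were farther apart than the bud libraries. The share of all genes compared for which this held is not given here, so whether 94.4% exceeds it was not tested. The median RPKM of all genes compared was 4.86 in the five-foliate shoot tip and 3.69 in the standard shoot tip. In the buds it was 5.08 (five-foliate) and 5.30 (standard). Genes with a strong five-foliate difference and a weak standard one were few. As deposited, of 69 genes with a five-foliate bud excess of 16-fold or more, 3 were under 2-fold higher in the standard bud. Of 66 at least 8-fold lower, 3 were under 2-fold lower. With centred ratios these last 3 had standard log2 ratios of -1.22, -1.09 and -1.03, so they were past 2-fold lower there too. The first 3, at 0.42, -0.84 and -0.22, stayed under 2-fold higher. One of the first 3, on chromosome 8, had 382.5 RPKM in five-foliate buds and 21.9 RPKM in five-foliate shoot tips, against 144.1 RPKM in standard buds and 121.4 RPKM in standard shoot tips. Whether the lines differ in their tissue ratios was not tested, since each value rests on 1 library.

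**Figure D4:**
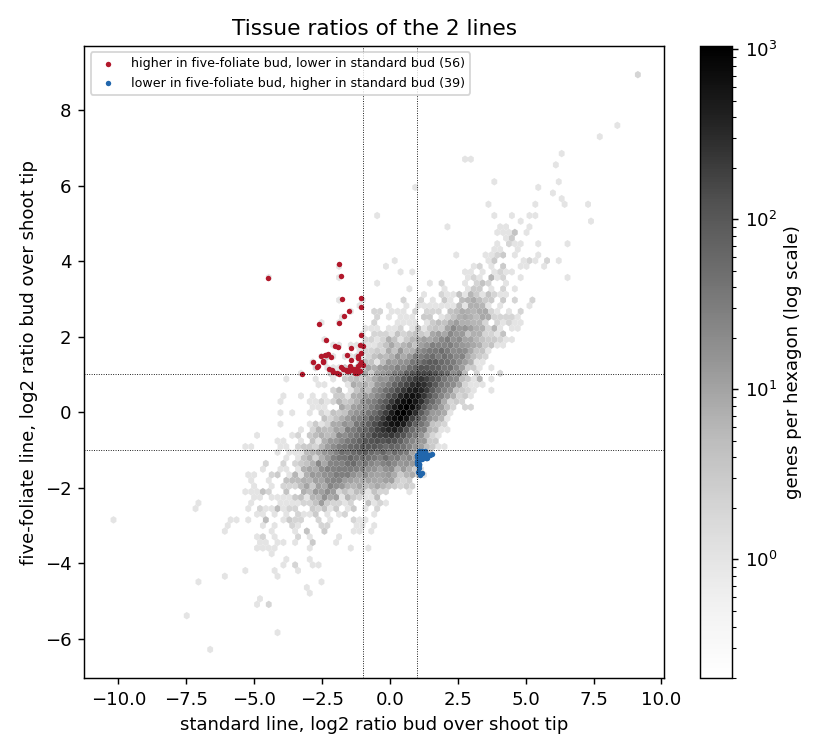
Log2 ratio of bud to shoot tip in the five-foliate line (vertical axis) and the standard line (horizontal axis), as the number of the 39042 genes in each hexagon, with dotted lines at 2-fold. Most genes lie along a common diagonal, and the coloured points are the 56 and 39 genes at least 2-fold different in opposite directions.

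Genes on either side of the comparison lay on all chromosomes. The share higher in the bud ran from 8.42% on chromosome 17 to 12.7% on chromosome 16, around the 10% of all genes, and the share lower from 6.49% on chromosome 16 to 9.38% on chromosome 12, around 7.92%. Chromosome 16 thus had both the highest share of higher genes and the lowest share of lower ones, with 186 higher and 95 lower among 1464. With centred ratios it had 11.4% higher and 7.10% lower. In the standard line chromosome 16 had 19.3% of its genes higher in the bud, below the 20.7% of all genes. Its top place for higher genes was thus not repeated there. Its standard share of lower genes, 7.45%, was also below that of all genes, 8.14%. Whether chromosomes differ was not tested.

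**Figure D5:**
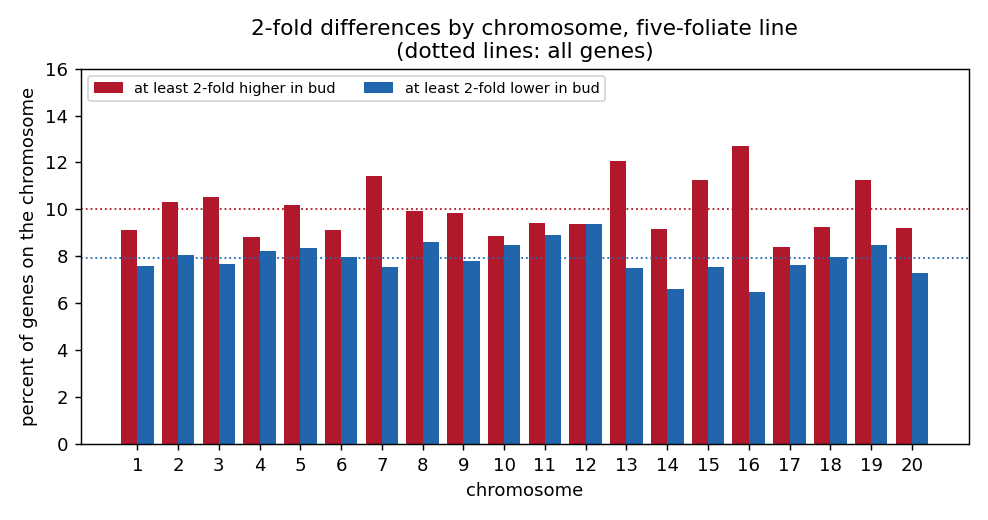
Percent of the genes on each chromosome that were at least 2-fold higher (red) or lower (blue) in the five-foliate bud than in the five-foliate shoot tip, with dotted lines at the values for all genes, 10% and 7.92%. Chromosomes 16 and 13 have the tallest red bars, at 12.7% and 12.1%.

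Most genes past 2-fold stood alone in the order of the genes compared, 2688 of the 3893 higher genes with a chromosome and 2406 of the 3082 lower ones. The remaining 31.0% and 21.9% stood next to another gene of the same direction, and whether that exceeds the share that 10% and 7.92% of all genes would give was not tested. Runs of 5 or more consecutive genes numbered 14 in the higher direction, the longest with 8 genes, and 3 in the lower direction, the longest with 6. Adjacent copies of a gene can share reads, and genes with identical reads occurred in 1 of these 17 runs, a run of 7 on chromosome 3.

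The run with the largest differences had 5 genes on chromosome 15. Their summed level was 211.1 RPKM in five-foliate buds and 0.0307 RPKM in five-foliate shoot tips, against 159.3 RPKM in standard buds and 0.0648 RPKM in standard shoot tips. All 5 were among the 51 genes present in the bud and nearly absent from the shoot tip, and all 5 were higher in the standard bud. The longest run, with 8 genes on chromosome 16, summed to 38.9 RPKM in five-foliate buds and 8.76 RPKM in five-foliate shoot tips, against 28.4 RPKM in standard buds and 8.34 RPKM in standard shoot tips. Only 3 of its genes were past 2-fold in the standard line. The first of these runs was thus nearly silent in both shoot tips, and the second was expressed in all 4 libraries.

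In the lower direction the longest run held 6 genes on chromosome 2. They summed to 209.1 RPKM in five-foliate buds and 550.2 RPKM in five-foliate shoot tips, against 221.0 RPKM in standard buds and 224.8 RPKM in standard shoot tips. The high level was that of the five-foliate shoot tip, and 0 of the 6 genes were past 2-fold in the standard line. A run of 5 genes on chromosome 10 summed to 33.3 RPKM in five-foliate buds and 148.1 RPKM in five-foliate shoot tips, against 35.6 RPKM in standard buds and 204.1 RPKM in standard shoot tips. All 5 were lower in the standard bud too.

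Alternative models of a gene rarely changed places. Of 6290 genes with more than 1 model at 1 RPKM in either five-foliate library, 482 (7.66%) had a different leading model in the bud and in the shoot tip. Over these 482 genes the median change in the share of the leading bud model was 0.713 percentage points, and in 3 genes it was 20 points or more. The largest, on chromosome 11, was 36.7 points in the five-foliate line and 32.5 points in the standard line, with its models in the five-foliate shoot tip at only 0.0827 and 0.349 RPKM. The other 2 genes, at 22.9 and 22.8 points in the five-foliate line, moved 3.91 and 15.99 points in the standard line. In 0 genes did the leading model stand at least 2-fold above the other in both tissues. Models of a gene overlap, and how reads common to them were counted is not given in the sources used here.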

How the data were processed

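Libraries from total RNA of the 4 combinations of line and tissue were sequenced on an Illumina GA II instrument, per the labels' protocols. The authors deposited RPKM values in 2 tables, 1 for each tissue, per the file headers and names. The aligner was Bowtie, per the submitters' processing notes. Not given in the sources used here are the build, the annotation release and what was done with multiply matching reads. Each table lists 78773 models, and 708957 empty rows of the bud table were dropped.

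Whole reads, library totals and model lengths were recovered by a search for lengths from 20 to 20000 that made all values of a model whole within 0.0005 reads, and of several lengths the shortest was taken. This succeeded for 99.9904% of the 62593 models above 0 in every library. Recovered reads summed to between 96.3% and 98.1% of the library totals. They served for intervals, floors and checks of shared reads, and the counts of genes used the RPKM. No count model was run, since the deposited unit is RPKM. The scripts were tested on simulated data (matplotlib 3.10.9, numba 0.67.0, SciPy 1.17.1, pandas 2.3.3 and numpy 2.4.6 under Python 3.11.15).

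A pseudocount of 1, a filter of 1 RPKM in either five-foliate library and a 2-fold threshold were used. Genes and lists were chosen with earlier results of these data known. The rule for identified genes was the 2 highest and 2 lowest ratios at 5 RPKM or more, and other genes described by chromosome were chosen after their values were seen. The planned lists and marker genes need names and were not applied. Alternatives were other pseudocounts, filters and thresholds, centring, upper-quartile scaling and summed models.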

Additional observations from a re-analysis of the deposited data

Results flagged for a closer look

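A group of 56 genes on 20 chromosomes was at least 2-fold higher in the bud of the five-foliate line and at least 2-fold lower in the bud of the standard line, so the tissue difference had opposite signs in the lines. Their median levels were 5.18 RPKM in five-foliate buds and 0.775 RPKM in five-foliate shoot tips, against 1.44 RPKM in standard buds and 6.77 RPKM in standard shoot tips. The difference between the lines was not tested, because each value is 1 library. Of the 56 genes, 51 kept opposite signs past 2-fold with centred ratios. The shoot tips of the lines were at least 2-fold apart for 48 of them and the buds for 34. A choice by opposite ratios itself requires the lines to be apart in at least 1 tissue. The shares of all genes compared that were so far apart are not given here.

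The reverse pattern was shown by 39 genes, lower in the five-foliate bud and higher in the standard bud. Their medians were 9.49 RPKM in five-foliate buds and 23.4 RPKM in five-foliate shoot tips, against 13.4 RPKM in standard buds and 4.72 RPKM in standard shoot tips. This difference was not tested either. The shoot tips were at least 2-fold apart for all 39 and the buds for 0, and only 2 of the 39 stayed past 2-fold in both lines with centred ratios.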

How the results depend on the processing

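The reported 7003 genes were 10579 at pseudocount 0.1 (6212 higher and 4367 lower in the bud), 2566 at pseudocount 5 (1192 higher and 1374 lower) and 2474 at 3-fold (1417 higher and 1057 lower). The centred count of 6912 was 10541, 2604 and 2494 in the same settings. A filter of 5 RPKM left 2393 higher and 2591 lower genes, so that the lower ones were then the larger group, and 2013 genes higher in both lines. Genes higher in both lines numbered 5063 at pseudocount 0.1, 990 at pseudocount 5 and 1074 with a 3-fold threshold, and genes lower in both lines 903 with a pseudocount of 5 and 701 with a 3-fold threshold. The 56 genes higher in the five-foliate and lower in the standard bud were 140, 7 and 10 in these settings, 29 with a filter of 5 RPKM, 101 with centred ratios and 92 with upper-quartile scaling. The 39 genes of the reverse pattern were 125, 2 and 0, then 2 with centred ratios and 3 with upper-quartile scaling. The genes present in the bud alone numbered 31 at 10 RPKM against 0.1 RPKM and 192 at 5 RPKM against 0.5 RPKM, and those of the shoot tip 1 and 39. A median log2 ratio of 0.17 without the chromosome 13 stretch was the only median that moved by over 0.1. That setting and counting genes with identical reads once were chosen after the data were seen. In 59 further cases the count moved less than 1.5 times or the median by less than 0.1. Why values moved was not tested beyond what each setting itself changes. Runs of 5 or more genes higher in the bud numbered between 2 and 39 over the settings. Over the pseudocounts the log2 ratio lay between 6.99 and 10.48 for Glyma10g04930 and between -8.08 and -4.29 for Glyma14g06980, and no identified gene changed sign. Depth limits genes near 3 reads. No paired analysis was possible because each side of the five-foliate comparison has 1 library, so none could be left out either. A fit of tissue over both lines with the line as a block, which asks about the lines together, was not run.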
